A study of Sus scrofa with 8 samples.

Results

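Chemokines are small secreted proteins that draw migrating cells along a concentration gradient. The CXC branch is named after the spacing of its first pair of conserved cysteines. Members that carry the amino acids Glu-Leu-Arg ahead of those cysteines act on neutrophils through CXCR1 and CXCR2. In many tissues they are made by epithelial, stromal and endothelial cells after interleukin 1 or tumour necrosis factor has activated NF-kappa B. Members without these amino acids have other targets, among them the interferon-induced ligands of CXCR3 on T cells and CXCL12, which holds and guides CXCR4-bearing cells. In islet transplantation, chemokines released by the graft are of interest because they can recruit leukocytes to it.

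The CXC chemokines examined here were AMCF-II, CXCL2, CXCL8, CXCL9, CXCL10, CXCL12, CXCL14 and CXCL16, 8 genes in all. Their members were every probe set of the porcine GeneChip whose annotation gave exactly 1 of these symbols. Of the 8 genes, 7 had a probe set, among 6765 genes named by a single symbol on the array, and CXCL10 was not listed in the annotation used and was not analysed. The 7 genes had 11 probe sets, 3 for AMCF-II, 2 each for CXCL12 and CXCL14, and 1 each for the others. All 11 passed the filter on low values. CXCL9 did so through a single array.

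The arrays measured total RNA from islets of male Duroc/Large White cross pigs, 4 labelled 3-day-old and 4 labelled 7-day-old. Each array held the islets of 1 pig, without pooling. The pancreases had been digested with collagenase, and the islets of both ages were cultured in Ham's F10 medium with glucose, isobutylmethylxanthine, albumin and nicotinamide for 7 days before use. The question put to the arrays was whether islets differ with the age of the piglet, here in the chemokines they express. No treated or adult group entered the comparison, and both ages had been through the same digestion and culture. Transcripts of insulin (INS), glucagon (GCG), somatostatin (SST) and pancreatic polypeptide (PPY) were bright on every array. INS averaged 24649 ± 2214 intensity units under the 3-day-old and 23694 ± 4216 under the 7-day-old label (SD, n = 4 each).

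Array medians lay between 171.6 and 178.5 intensity units and the 20th percentile, taken as the level of detection, between 26.4 and 31.3. Log2 values correlated with r of 0.944 to 0.956 between arrays of the same label and 0.936 to 0.944 between labels. Of 21574 probe sets tested, 10.7% were called by limma at an adjusted p under 0.05, 5.47% lower and 5.21% higher in the arrays labelled 7-day-old. Differences are given as log2 of arrays labelled 7-day-old minus 3-day-old. The direction that the deposited labels give is opposite to the one the study describes for AMCF-II, CXCL2, CXCL8 and CXCL14, which it has higher at 7 days of age. The reversal is not particular to the chemokines. It also holds for MMP1, MMP3, LIF, IL1A, TLR4, DCN, PECAM1 and BLNK, which the study lists as higher at 7 days. NEUROD1, which the study lists as lower at 7 days, is reversed as well. Which of the 2 is exchanged was not tested, and groups are named throughout by the label of their arrays. Since an array measures all cells of a preparation together, fewer cells of a type and less RNA per cell cannot be told apart.

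In the arrays labelled 7-day-old, the neutrophil-attracting chemokines AMCF-II, CXCL2 and CXCL8 and the tissue chemokine CXCL14 were lower. Of the 11 probe sets, 6 were called lower and 0 higher, against the 5.47% of all probe sets called lower. CXCL9 was at the level of detection in a single array, so the following counts leave it out. The differences of the other 10 probe sets were all negative, and in 7 of the 10 the 4 arrays labelled 7-day-old lay below all 4 labelled 3-day-old, which held for 10.3% of the probe sets tested (labels without overlap in either direction made up 21.2%). The median log2 difference was -1.30 over the 10 probe sets (-1.16 with CXCL9) and -0.00078 over all those tested. The 3 genes CXCL2, CXCL8 and CXCL14 were called by every probe set they had, AMCF-II by 2 of 3, and CXCL9, CXCL12 and CXCL16 by none. At an unadjusted p under 0.05 in limma the count was 8 of 10, against 6017 of all 21574 probe sets tested.

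**Figure D1:**
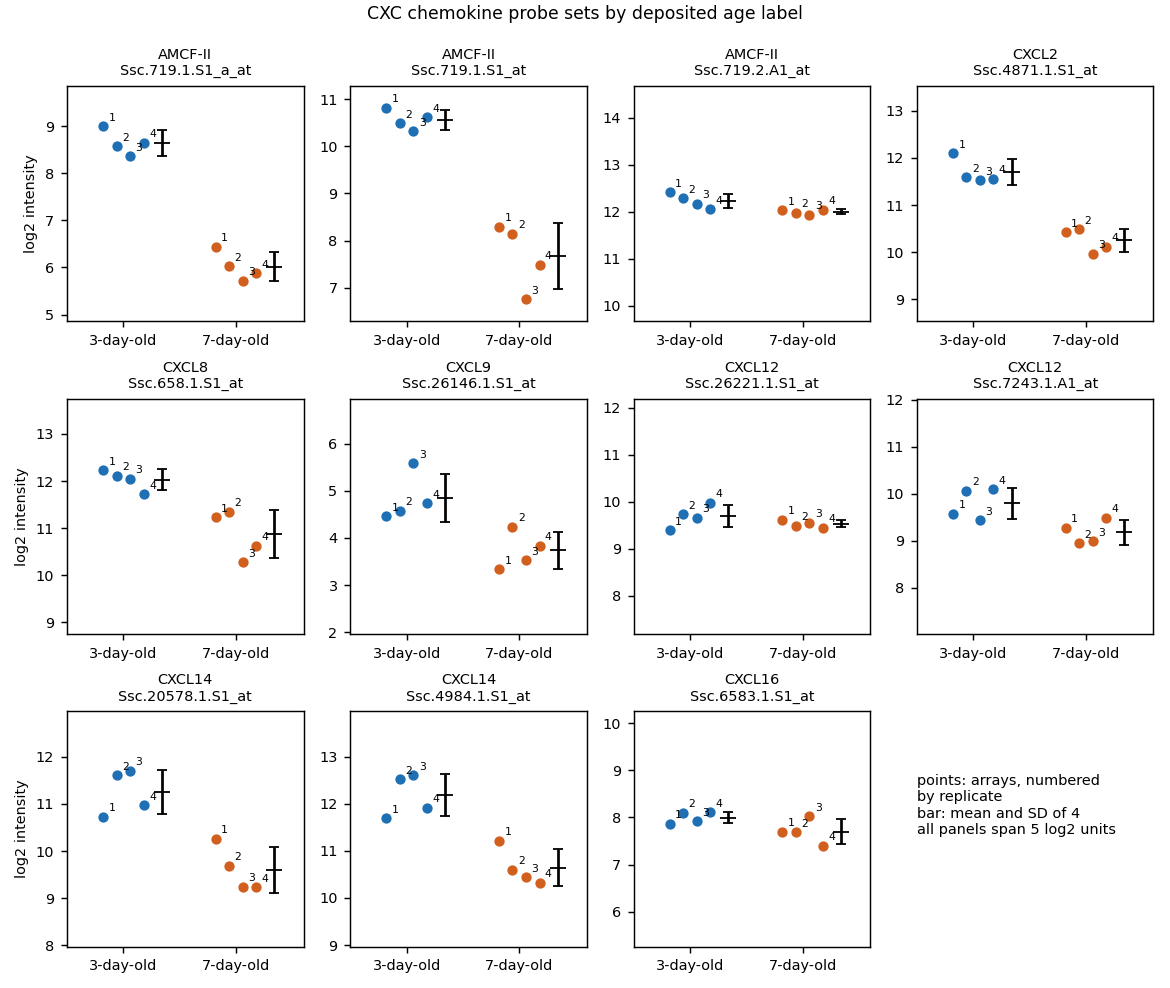
Log2 intensity (vertical axis) of the 11 CXC chemokine probe sets in the 4 arrays labelled 3-day-old (blue) and the 4 labelled 7-day-old (orange). Points are single arrays numbered by replicate, bars are the mean and SD of the 4 log2 values, and every panel spans 5 log2 units. The 2 labels overlap for CXCL16 and both probe sets of CXCL12 and in no other panel, and only 1 array of CXCL9 is at the level of detection.

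AMCF-II, alveolar macrophage chemotactic factor II, is a porcine chemokine first known as a neutrophil attractant. By probe set Ssc.719.1.S1_at its intensity was 1812, 1438, 1285 and 1576 in the arrays labelled 3-day-old and 315, 282, 108 and 179 in those labelled 7-day-old. The lowest of the first 4 arrays was thus above the highest of the other 4, which also spread more widely on the log2 scale (SD 0.70 against 0.21). Mean intensity was 1528 ± 224 and 221 ± 95.0 (SD, n = 4 each). The log2 difference was -2.90 (SE 0.33, limma adjusted p = 0.00566), a 7.44-fold lower level with a 95% interval of 4.35 to 12.7. This was the lowest of the 11 differences and the 20th lowest of all 21574 probe sets.

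The related probe set Ssc.719.1.S1_a_at gave intensities of 514, 381, 328 and 402 in arrays labelled 3-day-old against 87.1, 65.1, 52.6 and 58.6 in those labelled 7-day-old. Here too the labels did not overlap, with means of 406 ± 78.1 and 65.9 ± 15.03 (SD, n = 4 each). The log2 difference was -2.63 (SE 0.19, limma adjusted p = 0.00288), 6.20-fold lower with a 95% interval of 4.53 to 8.49. Both calls held when any single array was left out.

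The remaining AMCF-II probe set, Ssc.719.2.A1_at, did not share this drop. Its intensities were 5457, 4983, 4607 and 4265 in arrays labelled 3-day-old and 4194, 4027, 3930 and 4229 in those labelled 7-day-old. The labels did not overlap, though the gap between the lowest of the former and the highest of the latter was narrow. The log2 difference of -0.23 (SE 0.098, 95% interval -0.46 to -0.01) was not called (limma adjusted p = 0.171).

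CXCL2, also known as macrophage inflammatory protein 2, is another attractant of neutrophils. Its only named probe set read 4408, 3074, 2957 and 3022 in the arrays labelled 3-day-old and 1374, 1432, 999.9 and 1109 in those labelled 7-day-old. Replicate 1 of the first group stood above the other 3, and every array of the second group was below all 4 of the first. Mean intensity was 3365 ± 697 and 1229 ± 208 (SD, n = 4 each), which is -1.45 on the log2 scale (SE 0.18, limma adjusted p = 0.0061). The fold was 2.73, with a 95% interval of 2.05 to 3.63. The call held when any single array, replicate 1 included, was left out.

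CXCL8, interleukin 8, is the best known ligand of CXCR1 and CXCR2. Its intensity was 4813, 4423, 4233 and 3384 in arrays labelled 3-day-old and 2402, 2609, 1236 and 1581 in those labelled 7-day-old. The labels did not overlap, and within the 7-day-old label replicates 1 and 2 were higher than replicates 3 and 4. Mean intensity was 4213 ± 603 and 1957 ± 655 (SD, n = 4 each). The log2 difference of -1.16 (SE 0.25) was called with a limma adjusted p of 0.0306, a 2.23-fold lower level with a 95% interval of 1.48 to 3.37. This was the highest adjusted p of the 6 called probe sets. The call was lost by the methods' t-test (adjusted p = 0.0542) and without replicate 1, 2 or 3 of the 3-day-old or replicate 4 of the 7-day-old label, with adjusted p up to 0.0784.

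CXCL14 is a chemokine that many epithelial and stromal cells make in the absence of inflammation. Probe set Ssc.4984.1.S1_at read 3321, 5911, 6230 and 3865 in arrays labelled 3-day-old and 2383, 1554, 1385 and 1280 in those labelled 7-day-old. In the first group replicates 2 and 3 were high and replicates 1 and 4 low, and in the second replicate 1 was the highest. Mean intensity was 4832 ± 1453 and 1650 ± 501 (SD, n = 4 each), or -1.54 on the log2 scale (SE 0.28, limma adjusted p = 0.0168) and 2.91-fold lower (95% interval 1.87 to 4.54).

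The other CXCL14 probe set, Ssc.20578.1.S1_at, repeated this order with 1696, 3126, 3336 and 2019 against 1224, 823, 604 and 599.7. Its means were 2544 ± 808 and 813 ± 294 (SD, n = 4 each), 3.14-fold apart (95% interval 1.91 to 5.18). Labels differed by -1.65 on the log2 scale (SE 0.31, limma adjusted p = 0.0194). This call was lost without replicate 2 or 3 of the 3-day-old label or replicate 2 of the 7-day-old label (adjusted p up to 0.0548), while that of Ssc.4984.1.S1_at held in each case (up to 0.0495).

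The interferon-induced, T cell-attracting member of the family, CXCL9, was measured close to the limit of detection. It read 21.99, 23.9, 47.99 and 26.6 in arrays labelled 3-day-old and 10.1, 18.9, 11.5 and 14.3 in those labelled 7-day-old. Only replicate 3 of the 3-day-old label reached the 20th percentile of its array, so this probe set was tested because of the group in which it was higher. Its log2 difference of -1.10 (SE 0.29, limma adjusted p = 0.0542) was not called and sets values against each other that are mostly below detection.

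CXCL12, a constitutive stromal chemokine, was moderately bright on all arrays. Probe set Ssc.7243.1.A1_at read 761, 1071, 693 and 1092 in arrays labelled 3-day-old and 619, 494, 508 and 721 in those labelled 7-day-old. The labels overlapped, since replicate 4 of the second group exceeded replicate 3 of the first. The log2 difference was -0.62 (SE 0.20, 95% interval -1.08 to -0.15, limma adjusted p = 0.0929). It was called under the stricter filter (adjusted p = 0.0325) and with an intensity trend and robust variances (0.0271).

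The other CXCL12 probe set, Ssc.26221.1.S1_at, read 676, 855, 808 and 1011 against 786, 720, 750 and 700.0. The values of the labels were intermixed. Between labels they differed by -0.17 on the log2 scale (SE 0.13, 95% interval -0.47 to 0.14, limma adjusted p = 0.455).

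CXCL16 is made as a membrane-anchored chemokine that proteases can release, and it also serves as a scavenger receptor. It read 233, 275, 243 and 276 in arrays labelled 3-day-old and 207, 206, 261 and 169 in those labelled 7-day-old. Replicate 3 of the second group lay within the range of the first. The log2 difference was -0.30 (SE 0.14, 95% interval -0.63 to 0.03, limma adjusted p = 0.223), so the interval left room for a level up to 1.55-fold lower.

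**Figure D2:**
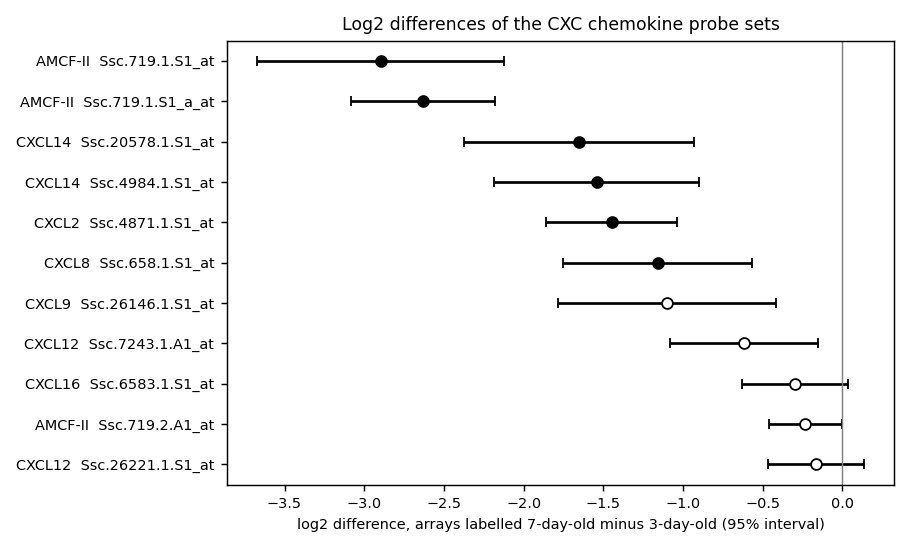
Log2 difference (horizontal axis) of each CXC chemokine probe set, arrays labelled 7-day-old minus 3-day-old, with its 95% interval from limma. Filled points were called at an adjusted p under 0.05, and the grey line marks no difference. The points run from -2.90 for AMCF-II to -0.17 for CXCL12.

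From the lowest difference upwards, the order was AMCF-II by its first pair of probe sets, CXCL14, CXCL2, CXCL8, CXCL9, CXCL12 by Ssc.7243.1.A1_at, CXCL16, AMCF-II by Ssc.719.2.A1_at and CXCL12 by Ssc.26221.1.S1_at. Differences between probe sets were compared array by array in an exact permutation test of the 2 labels, two-sided, whose smallest possible p with 4 arrays against 4 was 0.0286. Of the 55 pairs, 27 reached that p, which became 0.0582 after Benjamini-Hochberg adjustment, so 0 of 55 passed. Among the 10 pairs of neighbours in the order, the step from AMCF-II (Ssc.719.1.S1_a_at) to CXCL14 (Ssc.20578.1.S1_at) was -0.98 on the log2 scale (exact permutation p = 0.0286, adjusted 0.0582), and none of the 10 passed.

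Probe sets of the same gene were then compared with each other, as the array-wise difference of their log2 values, in a limma fit over all 4325 such pairs on the chip. For AMCF-II, Ssc.719.1.S1_a_at minus Ssc.719.2.A1_at was -3.58 ± 0.21 on the log2 scale under the 3-day-old label and -5.98 ± 0.29 under the 7-day-old label (SD, n = 4 each). This gap changed by -2.40 (SE 0.18), with a limma adjusted p of 0.00629. This was the only pair called of the 4325, a share of 0.0231%, while 11.4% of pairs had an unadjusted p under 0.05. The call was lost without replicate 2 of the 7-day-old label (adjusted p = 0.0519). By an exact permutation test, two-sided and adjusted over the 5 pairs of the chemokines, p was 0.0714, the smallest this design allowed being 0.0286 before adjustment.

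The gap between Ssc.719.1.S1_at and Ssc.719.2.A1_at changed by -2.66 (SE 0.32). It ranked second by p of all pairs without passing the adjustment (limma adjusted p = 0.0824), and passed without replicate 3 of the 7-day-old label (0.038). Between the 2 probe sets of the Ssc.719.1 cluster the difference was 0.26 (95% interval -0.26 to 0.79, limma adjusted p = 0.725). Of the 3 AMCF-II probe sets, 2 therefore gave a more than 6-fold drop and 1, the brightest, a 1.17-fold one. Which of them measured the AMCF-II transcript was not tested, since no probe sequences were at hand.

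CXCL12 and CXCL14 differed in this respect. The 2 CXCL14 probe sets moved in parallel, with gaps of -0.93 ± 0.03 and -1.04 ± 0.13 on the log2 scale (SD, n = 4 each) and a difference of -0.11 (95% interval -0.37 to 0.15, limma adjusted p = 0.776). For CXCL12 the gap changed by 0.45 (95% interval 0.02 to 0.88), with an unadjusted p of 0.0437 in limma, 0.426 after adjustment, and an exact permutation p of 0.0571.

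**Figure D3:**
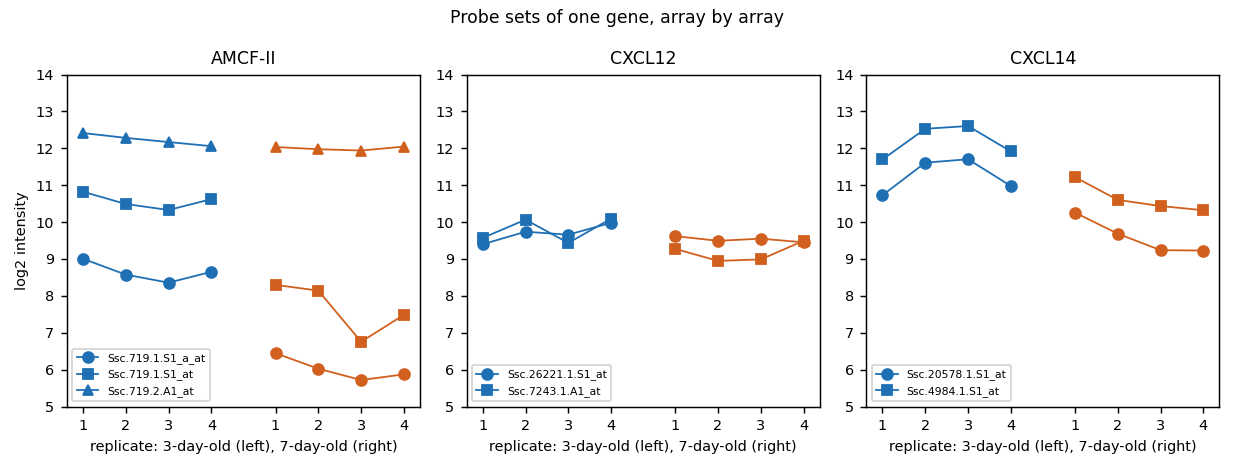
Log2 intensity (vertical axis) of the probe sets of AMCF-II, CXCL12 and CXCL14 in each array, with arrays labelled 3-day-old in blue and 7-day-old in orange. Each symbol is a probe set, and lines only join its arrays, which have no order. For AMCF-II the probe set drawn as triangles stays near 12 while the other two drop, whereas the 2 CXCL14 probe sets run in parallel.

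Within a label, the called neutrophil-attracting probe sets tended to run high and low in the same pigs. Replicate 1 of the 3-day-old label had the highest value of its group for AMCF-II by all 3 probe sets, for CXCL2 and for CXCL8, and the lowest for both probe sets of CXCL14. The same array had the highest summed intensity of its group for neutrophil markers (1105, against 349 to 389 in the other 3) and for macrophage and dendritic cell markers (2333, against 894 to 1156), whose part in its chemokine values was not tested. Of the 1105, S100A9 alone gave 738, and no other neutrophil marker was at the level of detection in all 8 arrays. Without replicate 1 of the 3-day-old label the log2 difference was -2.81 and -2.51 for the called AMCF-II probe sets, -1.31 for CXCL2 and -1.09 for CXCL8. In the 7-day-old label, replicates 1 and 2 were above and replicates 3 and 4 below the group mean for AMCF-II (Ssc.719.1.S1_at), CXCL2 and CXCL8. After the mean of each label was subtracted, Pearson's r over the 8 arrays was 0.632 to 0.877 for the 6 pairs among the 2 Ssc.719.1 probe sets, CXCL2 and CXCL8, and -0.118 to 0.529 for the 8 pairs of these with CXCL14. For the uncalled AMCF-II probe set, Ssc.719.2.A1_at, it was 0.294 to 0.639 with the same 4. These relations were not tested and are given as a description. The points of each pair share their arrays, and 2 of the probe sets belong to the same gene.

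**Figure D4:**
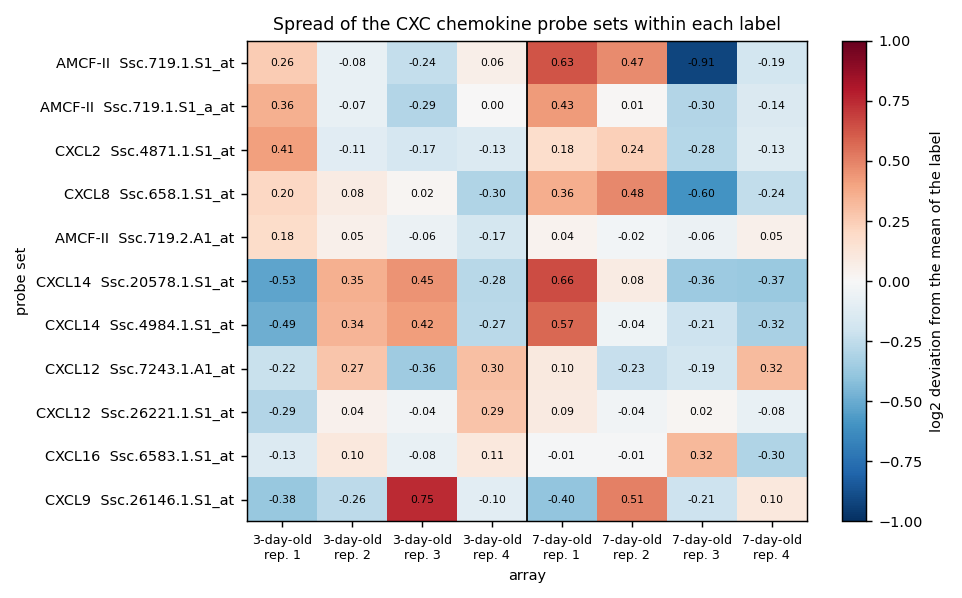
Log2 deviation of each CXC chemokine probe set (rows) in each array (columns) from the mean of its label, with red above and blue below the mean and the value printed in each cell. In 3-day-old replicate 1 the upper 5 rows (AMCF-II, CXCL2 and CXCL8) are positive and the CXCL14 rows negative. In 7-day-old replicate 3 the upper 5 rows are negative, down to -0.91 for AMCF-II.

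AMCF-II, CXCL2, CXCL8 and CXCL9 lie with CXCL10 on the same chromosome in the RefSeq gene table of the pig (5 of the 8 genes). AMCF-II is next to CXCL8 on one side and to PPBP, another neutrophil-attracting chemokine, on the other, whereas CXCL9 and CXCL10 flank ART3. CXCL12, CXCL14 and CXCL16 each lie on another chromosome. Of the neighbours, PPBP reached the 20th percentile in 1 array only, with a log2 difference of -0.79 (limma adjusted p = 0.352). The B cell-attracting chemokine CXCL13, outside the listed genes, had a difference of 0.07 (limma adjusted p = 0.931) by the probe set that could be tested.

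A probe set without a symbol in the annotation is attributed to CXCL2 in the study's listing. There it carries another gene identifier than the named CXCL2 probe set, so the pair may not measure the same gene. It was not counted among the 11 and was looked at after its values were known. It read 2722, 1835, 1693 and 1953 in arrays labelled 3-day-old and 905, 957, 735 and 861 in those labelled 7-day-old, without overlap. It differed by -1.23 on the log2 scale (SE 0.17, limma adjusted p = 0.00758), beside -1.45 for the named CXCL2 probe set.

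For each chemokine probe set, the 3 probe sets of other genes with the highest Pearson's r over the 8 arrays were sought among 9524 candidates. As the labels separate most of these values, r over all arrays is given with r after subtraction of the label means, both as descriptions. CXCL2 ran most closely with LRRC59 (r = 0.983, within labels 0.854), with NFKBIA, the inhibitor that NF-kappa B induces against itself (0.980, within labels 0.894), and with BLNK, a B cell signalling adaptor (0.980, within labels 0.757). CXCL14 (Ssc.4984.1.S1_at) ran with TIAF1 (0.993, within labels 0.981), the matrix metalloproteinase MMP2 (0.981, within labels 0.902) and PLXDC2 (0.981, within labels 0.904), and the same 3 genes led for its other probe set.

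For AMCF-II the leading gene was IGBP1 by both Ssc.719.1 probe sets (r = 0.994 and 0.989), followed by AKAP2 (0.983 and 0.989). The remaining probe set had others, namely the mucin MUC4 (0.978, within labels 0.963), LMO4 (0.959) and the cytokine IL1A (0.945, within labels 0.910). CXCL8 was led by TAGLN2 (0.978, within labels 0.916), CXCL16 by VAPA (0.970) and CXCL9 by RAN (0.968). The CXCL12 probe sets had different leading genes, TMEM208 for Ssc.7243.1.A1_at (0.981) and PPP1R8 for Ssc.26221.1.S1_at (0.985).

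Of 8 chemokine receptors listed, CXCR4 and CXCR6 were in the annotation, and CXCR1, CXCR2, CXCR3, CXCR5, ACKR1 and ACKR3 were not analysed here. CXCR4, the receptor of CXCL12, read 1118, 797, 1279 and 1233 in arrays labelled 3-day-old and 963, 944, 1303 and 1325 in those labelled 7-day-old. The labels were intermixed, with a log2 difference of 0.04 (SE 0.19, limma adjusted p = 0.916). CXCR6, the receptor of CXCL16, was at 22.1, 9.28, 41.9 and 18.8 against 3.00, 5.81, 9.24 and 3.19, and reached the 20th percentile only in replicate 3 of the 3-day-old label. Since every array labelled 7-day-old and 3 of the 4 labelled 3-day-old were below detection, no difference is given for CXCR6.

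Those of the listed inflammatory cytokines and receptors that passed the test were lower in the arrays labelled 7-day-old. Their part in the chemokine differences was not tested. Each gene was represented by its brightest probe set, by which 7.15% of 6545 genes were called lower and 5.03% higher, with a median log2 difference of -0.02. Of 13 inflammatory inducers and receptors tested, 8 were called lower and 0 higher, with a median of -0.88. They included the cytokines LIF (-1.44, SE 0.25, limma adjusted p = 0.0146) and IL1A (-1.08, SE 0.20, adjusted p = 0.0199). IL1A had a mean intensity of 225 ± 62.8 and 104 ± 10.6 (SD, n = 4 each). LIF was called whichever array was left out, and IL1A not without replicate 2 or 3 of the 3-day-old or replicate 1 or 2 of the 7-day-old label (adjusted p up to 0.0587). TNF, with a log2 difference of -2.80 (SE 0.69, adjusted p = 0.0422), was at the level of detection in all 4 arrays labelled 3-day-old but in 1 of the 4 labelled 7-day-old. Its call was kept only without replicate 1 of the 7-day-old label and lost without any of the other 7 arrays, with adjusted p up to 0.102.

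Some further inducers were picked after their values were seen. TLR4, the endotoxin receptor, was lower by 0.97 on the log2 scale (limma adjusted p = 0.00385) and was called whichever array was left out. IL1B (-0.13, limma adjusted p = 0.773) and IL6 (-0.88, adjusted p = 0.114) were not called. The count of 8 became 6 without replicate 1 of the 3-day-old or replicate 3 of the 7-day-old label. It was 5 without replicate 4 of either label, 4 without replicate 2 of the 3-day-old or replicate 1 or 2 of the 7-day-old label, and 3 without replicate 3 of the 3-day-old label.

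Of NF-kappa B subunits and inhibitors only 4 could be tested, and 2 were called lower. NFKBIA had intensities of 3866 ± 600 and 2397 ± 196 (SD, n = 4 each), thus -0.68 on the log2 scale (SE 0.13, limma adjusted p = 0.0199). TNIP1, which restrains NF-kappa B signalling, differed by -0.43 (SE 0.11, adjusted p = 0.0495). NFKBIA lost its call without replicate 2 of either label (adjusted p up to 0.0567), and TNIP1 kept it only without replicate 3 of the 7-day-old label.

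On the interferon side, to which CXCL9 belongs, 3 of 15 genes were called lower and 0 higher, with a median log2 difference of -0.25. These were the receptor chains IFNGR1 (-0.68, limma adjusted p = 0.0105), IFNAR1 (-0.54, adjusted p = 0.0426) and IFNAR2 (-0.37, adjusted p = 0.0317). The ligand IFNG, looked at after its values were seen, reached the 20th percentile in 1 array (log2 difference 0.81, adjusted p = 0.518). The transcription factor IRF1, chosen likewise, had a difference of -0.05 (adjusted p = 0.802). IFNGR1 was called whichever array was left out, IFNAR1 only without replicate 4 of the 7-day-old and IFNAR2 only without replicate 4 of the 3-day-old label. The count of the list was 3 without replicate 4 of the 3-day-old label. These were not the same 3 genes, since IFNAR1 was not called there (limma adjusted p = 0.0533). The count was 2 without replicate 4 of the 7-day-old label and 1 without any of the other 6 arrays.

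Proteases trim chemokines or release membrane-bound ones, and protease inhibitors restrain the proteases. Of 17 such genes, 6 were called lower and 1 higher, with a median log2 difference of -0.75. Among the 6 was the inhibitor TIMP1 (-0.80, limma adjusted p = 0.0149). The stromelysin MMP3 differed by -3.19 (SE 0.65, limma adjusted p = 0.0243) and the collagenase MMP1 by -2.83 (SE 0.39, adjusted p = 0.00787). DPP4, which removes the first amino acids from CXCL12 and other chemokines, went the other way, from 446 ± 205 to 981 ± 217 intensity units (SD, n = 4 each), or 1.21 on the log2 scale (SE 0.30, adjusted p = 0.0448). MMP2 (-1.42, adjusted p = 0.018) was also among the leading genes of CXCL14. MMP1 was called whichever array was left out, MMP2 not without replicate 3 of the 3-day-old label (adjusted p = 0.0529), and MMP3 not without replicate 1, 2 or 3 of the 3-day-old or replicate 2 of the 7-day-old label (up to 0.0675).

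The sheddases of CXCL16, singled out for that role after their values were seen, were not called, with ADAM10 at -0.04 (limma adjusted p = 0.959) and ADAM17 at -0.49 (adjusted p = 0.0566). Without replicate 3 of the 3-day-old label the 6 lower genes of this list, TIMP1 included, became 2. They became 3 without replicate 2 of that label, and 4 or 5 without any other array. When arrays were left out, DPP4 was called only without replicate 4 of the 3-day-old label.

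Proteoglycans of cells and matrix bind chemokines through their sugar chains. Of 12 tested genes of proteoglycans and of enzymes acting on their sugar chains, 4 were called lower and 0 higher, with a median log2 difference of -0.58. They were decorin (DCN, -2.05, limma adjusted p = 0.0126), the heparan sulfate polymerase EXT1 (-0.87, adjusted p = 0.00829), and the syndecans SDC1 (-0.48, adjusted p = 0.0313) and SDC2 (-0.42, adjusted p = 0.0471). The enzyme HPSE went the other way without being called (0.75, limma adjusted p = 0.0896). DCN and EXT1 were called whichever array was left out, SDC1 only without replicate 4 of the 3-day-old and SDC2 only without replicate 4 of the 7-day-old label. The count was 3 without replicate 1 or 4 of the 3-day-old or replicate 4 of the 7-day-old label, and 2 without any of the other 5 arrays.

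Some markers of other cells in the preparation were called lower as well, and their part in the chemokine differences was not tested. Of 12 endothelial markers 5 were called lower, with a median of -1.02 and a summed intensity of 2218 to 2746 in arrays labelled 3-day-old and 1136 to 1432 in those labelled 7-day-old. They included PECAM1 (-1.70, limma adjusted p = 0.00331), called whichever array was left out, and CDH5 (-1.41, adjusted p = 0.0192), not called without replicate 1 or 2 of the 7-day-old label (up to 0.0551). TIE1, also called (adjusted p = 0.0061), was at 50.4 to 70.3 in the 3-day-old label and below the 20th percentile in every array of the 7-day-old label, so it was at least 2.07-fold lower there when that percentile stands in for the values below it. The 5 became 3 without replicate 2 or 3 of the 3-day-old or replicate 2 of the 7-day-old label. Of 12 fibroblast and stellate cell markers 5 were lower (median -0.73, sums 30658 to 40962 and 21863 to 24559), among them DCN and PDGFRB (-1.17, adjusted p = 0.037, kept only without replicate 1 of the 3-day-old label), a count that was 6 without replicate 1 of the 3-day-old label and 2 without any other array. Of 8 pericyte and smooth muscle markers 3 were lower, a count that stayed at 3 whichever array was left out (median -0.55, sums 3236 to 4310 and 2035 to 2425), among them RGS5 (-1.42, adjusted p = 0.0067). DCN and FAP stand both here and among the proteoglycans or proteases. Uncalled and in the other direction were EGFL7 (0.25) and VWF (0.27) of the endothelial and COL3A1 (0.11) and FBLN1 (0.03) of the fibroblast markers.

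Of 7 general leukocyte genes, 5 were at the level of detection in all 8 arrays. The pan-leukocyte marker PTPRC reached the 20th percentile in 1 of 8 arrays, at 25.9 ± 18.8 and 16.1 ± 7.52 (SD, n = 4 each), and 2 of the 7 were called lower (LAPTM5, -1.26, limma adjusted p = 0.0455, and LCP1, -0.59, adjusted p = 0.0301), a count that was 1 or 0 without any single array. ITGB2 of this list went the other way without being called (0.54, limma adjusted p = 0.0512). It read 155 to 243 in arrays labelled 3-day-old and 265 to 294 in those labelled 7-day-old. When single arrays were left out, at most 1 of the 7 was called higher. The sum over the 7 was 1741 to 2238 and 1267 to 1524. Of 6 neutrophil markers 0 were called (median -0.75, sums 349 to 1105 and 166 to 370), of 11 macrophage and dendritic cell markers 1 was called (TYROBP, -2.25, adjusted p = 0.0328; median -0.997, sums 894 to 2333 and 509 to 845). TYROBP was at the level of detection in 1 of the 4 arrays labelled 7-day-old and kept its call only without replicate 4 of either label. Of 10 T and NK cell markers CD247 was called higher (0.46, adjusted p = 0.0412; median of the 10 -0.38, sums 404 to 556 and 402 to 482), and only without replicate 4 of the 3-day-old label was that call kept. Of 3 B and plasma cell markers BLNK was lower (-2.04, adjusted p = 0.00288), called whichever array was left out. The other two, JCHAIN (0.42, adjusted p = 0.2) and CD79B (0.56, adjusted p = 0.72, at the level of detection in 1 array), were not called, and the median of the 3 was 0.42. The sums of 1404 to 2085 and 462 to 601 were mostly BLNK.

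Of the epithelial cells, 2 of 12 duct markers were lower (KRT19, -0.83, limma adjusted p = 0.0148, and MUC1, -0.61, adjusted p = 0.0401; median -0.28, sums 71758 to 79186 and 64021 to 68688). KRT19 kept its call whichever array was left out, and MUC1 only without replicate 1 of the 3-day-old or replicate 3 of the 7-day-old label. Of 7 acinar markers 1 was lower (CPB1, -1.56, adjusted p = 0.00787; median -0.14, sums 33104 to 38133 and 28032 to 43976), and 2 without replicate 2 of the 3-day-old label. The acinar markers CELA1 (0.79), AMY2 (0.52) and CLPS (0.40) went the other way and were not called. Of 14 islet endocrine markers 6 were higher and 0 lower (median 0.53, sums 132341 to 164907 and 152355 to 187767). They included NEUROD1 (1.39, adjusted p = 0.00407), PCSK2 (1.11, adjusted p = 0.00775) and SCG3 (1.05, adjusted p = 0.00622), and 4 to 6 of the 14 were called when 1 array was left out. The bright hormone genes INS (-0.07), GCG (-0.19), SST (0.08) and PPY (0.19) were not called. The hormone gene GHRL reached the 20th percentile in 2 arrays, and IAPP in none, so IAPP was not tested.

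**Figure D5:**
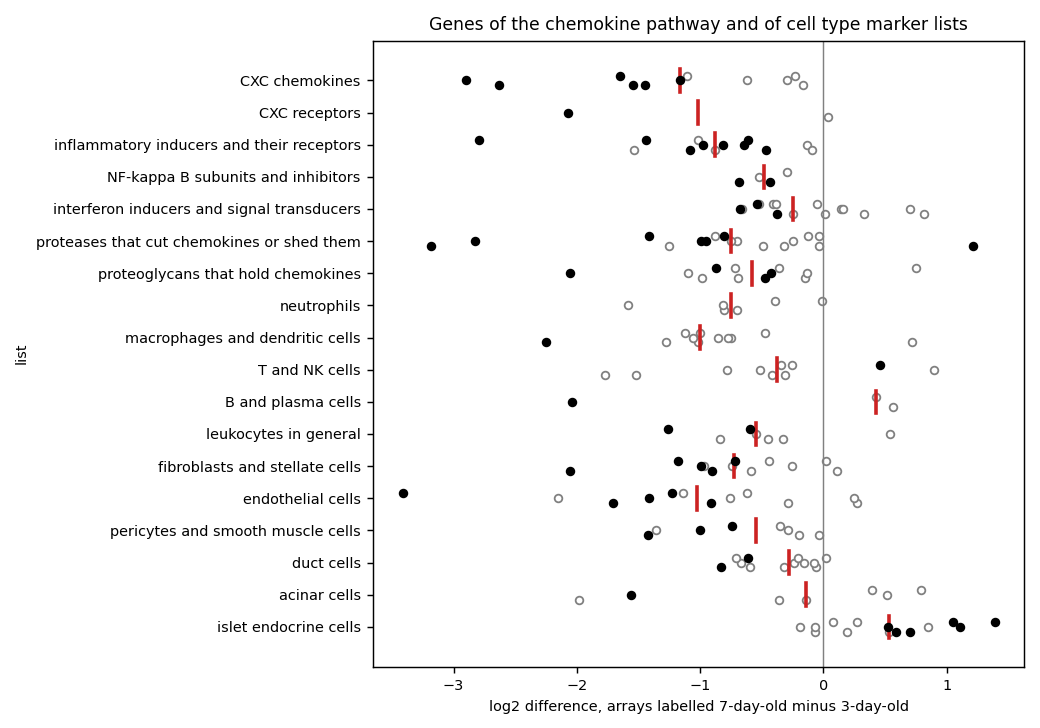
Log2 differences (horizontal axis, arrays labelled 7-day-old minus 3-day-old) of the 11 CXC chemokine probe sets in the top row and of the genes of each pathway and cell type marker list in the rows below it. Filled points were called by limma at an adjusted p under 0.05, open points were not, and the red bar is the median of the row. The chemokine median of -1.16 (-1.30 without CXCL9) lies left of zero, as do the medians of every list except those of B and plasma cells and of islet endocrine cells. The CXC receptor row holds only CXCR4 and CXCR6, so its median is not read. CXCR6, drawn as called, was at the level of detection in 1 array only.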

How the data were processed

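Islets of 8 pigs, 4 labelled 3-day-old and 4 labelled 7-day-old, were measured on Affymetrix porcine GeneChips, 1 array per pig. The authors deposited intensities on a linear scale, brought to the same mean in each array (500.1) once the upper and lower 2% are trimmed. How probe sets were summarised is not given in the sources available. An additional round of linear amplification was applied where cRNA was low, to samples that are not named. Of 24123 probe sets, 124 controls were left out. The 1528 intensities under 1 were raised to 1 before log2 was taken. Tested were the 21574 of 23999 probe sets at or above the 20th percentile of their array in 1 or more arrays.

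Labels were compared two-sided with limma 3.58.1 (R 4.3.3; lmFit, then eBayes), without covariates, and p-values were Benjamini-Hochberg adjusted over all probe sets tested, with 0.05 as threshold. Symbols came from GEO's platform annotation (10069 probe sets with 1 symbol, 198 with several, 13732 with none), and probe sets with several named no gene. RefSeq's gene table served for neighbours only. Named were all chemokine probe sets and receptors, up to 3 called genes of each list by size of difference, and the 3 probe sets most like each chemokine. The chemokines, lists and tests were chosen with earlier results of these data known. The scripts were tested on simulated data. Replicate numbers name different pigs, and same-numbered arrays did not deviate together (residual r -0.013 to 0.0049), so no pairing was used. The number of arrays limits the precision, and p-values cover the spread between these pigs.

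Tried as alternatives were no filter, a filter requiring the 50th percentile in 4 or more arrays, the methods' t-test, an intensity trend with robust variances, median centring, quantile normalization, array quality weights, a replicate block, an offset of 16 before log2, and omission of each array. List counts without each array and chemokine counts without CXCL9 were added after seeing the data. Figures were drawn with matplotlib 3.10.9.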

Additional observations from a re-analysis of the deposited data

Results flagged for a closer look

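Among the 22 groups of 4 arrays examined for the 11 chemokine probe sets, 1 held an array far from its group. CXCL2 read 4408 in replicate 1 of the arrays labelled 3-day-old, while the other 3 lay between 2957 and 3074. Chance alone sets apart about 1 in 20 such groups. Without this array the log2 difference of CXCL2 was -1.31 and remained called by limma (adjusted p = 0.0128). In the same array the summed intensity of neutrophil markers was 1105, against 349 to 389 in the other arrays labelled 3-day-old, and that of macrophage and dendritic cell markers 2333, against 894 to 1156. Of the 1105, S100A9 alone gave 738. The part of these markers in the CXCL2 value was not tested.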

How the results depend on the processing

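The count of 6 chemokine probe sets called lower was 5 with the methods' t-test, 7 under the stricter filter and with an intensity trend and robust variances, 6 under the other 5 settings without a block, and 4 to 6 when 1 array was left out. None was called higher in any setting, and no direction turned. With the replicate number as a block, 0 chemokine probe sets were called (8 at an unadjusted p under 0.05) and 0 of all probe sets (5264 unadjusted, against 2305 called and 6017 unadjusted without it), the lowest adjusted p of a chemokine being 0.0576. The numbers mark different pigs and pair no arrays. All probe sets called were 3491 with an intensity trend and robust variances and 1008 to 1854 without 1 array. Of the 5 pairs of chemokine probe sets, 1 was called by limma, 2 under the stricter filter, with an intensity trend and robust variances and with an offset, 0 with the replicate block (2 unadjusted), 0 by the exact permutation test (2 unadjusted), and between 0 and 2 without any single array. The causes of these changes were not tested. CXCL9 gave no value under the stricter filter. The planned look at protein and promoter sequences was not run, because no sequence table was at hand.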
